A study of Mus musculus with 20 samples.

Results

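Chromatin accessibility was described at 10 genes of the JAK-STAT pathway in mouse blood stem and progenitor cells. They are the kinase genes Jak1 and Jak2, the transcription factor genes Stat3, Stat4, Stat5a and Stat5b, and the inhibitor genes Socs1, Socs2, Socs3 and Cish. A peak of open chromatin was counted to the gene its centre lay in, and otherwise to the protein-coding gene with the nearest boundary. Of the 125343 peaks of the series, 130 belonged to the 10 genes, 79 of them inside and 51 outside the gene, and 36 lay more than 10 kb from it. A gene name therefore marks a neighbour, and which gene a distant peak acts on was not tested.

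JAK kinases sit on the inner tails of cytokine receptors. When a cytokine binds, they phosphorylate the receptor and the STAT proteins, which then pair, enter the nucleus and bind DNA at the palindrome TTCNNNGAA, where N is any base. STATs switch on genes of the SOCS family and Cish, whose proteins bind receptors or JAKs and dampen the signal. In blood stem cells the pathway carries thrombopoietin and other growth signals, and activating JAK2 mutations drive human myeloproliferative neoplasms.

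The assay was ATAC-seq, where a transposase cuts accessible DNA and tags it for sequencing, and the cells were LSK cells, the Lin-cKit+Sca1+ bone marrow fraction that holds stem cells and multipotent progenitors. The mice were of strain C57Bl/6J and aged 3 to 4 months. Controls were +/+;Vav-Cre (WT below). The Idh1 mutant was Idh1LSL-R132H/+;Vav-Cre. One Idh2 mutant was Idh2LSL-R140Q/+;Vav-Cre and the other was Idh2LSL-R172K/+;Vav-Cre. In all 3 a Cre driven by the Vav promoter of blood cells switches on 1 mutant allele. The fifth genotype was Tet2-/-, whose label names no Cre. Mutant IDH enzymes make 2-hydroxyglutarate, which can inhibit TET enzymes, and TET2 oxidizes 5-methylcytosine. Each genotype had 4 libraries, each a pool of 2 mice that the design text calls a biological replicate.

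The promoters of 3 inhibitor genes are shown first because the peaks at the starts of Socs3 and Cish had the highest log2 fold changes of the 10 start peaks in Idh2 R172K, as described below, and the peak at the start of Socs1 is the strongest of the 4 inhibitors by its read count. Each is a 300-base window from RefSeq (GRCm38.p6, the assembly that mm10 represents), 250 bases before to 50 bases from the transcription start, written 5′ to 3′ on the gene's strand. Capitals mark TTCNNNGAA, which is its own reverse complement and so is read on both strands at once. The Socs3 window is chr11:117969317-117969616 (minus strand), the Cish window chr9:107296409-107296708 (plus strand) and the Socs1 window chr16:10785487-10785786 (minus strand).
Socs3: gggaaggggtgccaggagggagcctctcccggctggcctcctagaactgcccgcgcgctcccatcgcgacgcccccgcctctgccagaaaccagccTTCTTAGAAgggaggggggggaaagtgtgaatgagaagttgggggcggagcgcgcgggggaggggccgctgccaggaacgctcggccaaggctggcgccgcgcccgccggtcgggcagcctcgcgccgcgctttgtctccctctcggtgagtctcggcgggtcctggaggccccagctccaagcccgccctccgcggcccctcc
Cish: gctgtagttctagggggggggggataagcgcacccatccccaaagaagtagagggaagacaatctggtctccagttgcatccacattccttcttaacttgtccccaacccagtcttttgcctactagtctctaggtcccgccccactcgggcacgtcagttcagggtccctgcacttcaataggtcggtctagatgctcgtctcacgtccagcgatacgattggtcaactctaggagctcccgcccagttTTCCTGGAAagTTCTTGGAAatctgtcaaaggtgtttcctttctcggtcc
Socs1: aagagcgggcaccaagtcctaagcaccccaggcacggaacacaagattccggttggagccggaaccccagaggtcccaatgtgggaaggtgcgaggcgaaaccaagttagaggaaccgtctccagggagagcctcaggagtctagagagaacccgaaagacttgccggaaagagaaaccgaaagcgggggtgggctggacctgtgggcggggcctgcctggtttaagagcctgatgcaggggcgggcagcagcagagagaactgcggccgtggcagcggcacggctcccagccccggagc

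Of the 10 genes 9 matched the RefSeq promoter table, with 12 windows, and the motif occurred in 2 of these windows. The Socs3 window held TTCTTAGAA, which begins at base -154 relative to the start. The Cish window held TTCCTGGAA, beginning at the start base itself, and TTCTTGGAA, 11 bases after it, and these occurrences do not overlap. Among all 32851 promoter windows, 8.30% held the motif and 0.457% held it at 2 or more positions. The Socs3 window also held 31 CpG dinucleotides, the Cish window 11 and the Socs1 window 18, against a median of 7 over all windows. A match is a description of the letters, and binding of a STAT protein was not measured.

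A library held between 10502052 and 27890340 counts in peaks, and levels are given as CPM, a peak's share of a library's counts scaled to a total of 1000000. The peaks of all 7 marker genes of stem and progenitor cells were present, with the strongest near Mecom, Flt3 and Kit (81.5, 77.7 and 64.8 CPM in WT), while the strongest peak of Ly6a, the gene of Sca1, held 1.19 CPM. Of 19 genes of mature myeloid, B, T and NK, and red cells 4 had no peak, namely Ly6g, Cd79a, Cd8a and Hba-a1. Others had strong ones, such as Cd3d (49.8 CPM in WT), Csf1r (49.6), Klf1 (47.6), Pax5 (25.6) and Mpo (20.2). Summed over 4 megakaryocyte genes, the libraries held 188 to 200.02 CPM in WT and 225 to 261 CPM in Idh2 R172K, and over 4 genes of stroma and endothelium 194 to 211 and 156 to 168 CPM. Over 3 erythroid genes with peaks they held 137 to 145 and 153 to 157 CPM. Over the 7 stem and progenitor genes the ranges overlapped, at 941 to 998 and 982 to 1033 CPM. They also overlapped over the mature myeloid genes (208 to 238 and 198 to 224 CPM) and the T and NK cell genes (70.6 to 74.0 and 73.0 to 78.2 CPM). Over 3 B cell genes with peaks the ranges were 77.3 to 86.0 and 66.5 to 74.9 CPM, and the promoter class held 40.6% to 41.8% of all counts in WT and 43.3% to 44.4% in Idh2 R172K. The part of these differences in the results below was not tested, and in bulk cells fewer cells of a type cannot be told apart from less accessibility per cell.

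Idh2 R172K changed the accessibility of these genes in both directions. A peak was called when its adjusted p, from the edgeR quasi-likelihood test with Benjamini-Hochberg adjustment over all 123908 tested peaks, lay under 0.05, and 129 of the 130 peaks were tested. Against WT, 76 of the 129 peaks were called, 43 higher and 33 lower, which is 58.9%, where 53% of all peaks were called (25.1% higher and 27.9% lower). The share is near that of all peaks, and 4 of the higher and 10 of the lower peaks moved more than 2-fold. The share of all peaks beyond 2-fold was not counted. Among called peaks the median absolute log2 fold change was 0.55 here and 0.71 over all peaks. Scaling by library size alone gave 29 higher and 35 lower peaks, beside 23277 higher and 38486 lower among all peaks. The median log2 fold change was 0.08 over the 129 peaks and 0.01 over all peaks.

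Among the kinase genes 15 peaks rose and 15 fell of 49, among the STAT genes 15 rose and 6 fell of 42, and among the inhibitor genes 13 rose and 12 fell of 38. Peaks that held WT and Idh2 R172K libraries fully apart numbered 55 of 129, beside 43.9% of all peaks. In Tet2-/- 7 of the 129 peaks were called, 1 higher and 6 lower, which is 5.43% beside 3.1% of all peaks (0.785% higher and 2.32% lower). In Idh1 R132H and Idh2 R140Q none was called, beside 0.0274% and 0.0153% of all peaks. An unadjusted p under 0.05 in the edgeR test was held by 6 and 10 of the 129, beside 5.07% and 5.5% of all peaks. DESeq2 called none in these 2 genotypes either. All 4 comparisons used the same WT libraries.

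The peaks at the gene starts were examined first. For each gene this was the strongest promoter-class peak within 2 kb of a RefSeq start. Socs2 had no entry in the RefSeq promoter table, and the boundaries of its gene stood in for the start. Jak1 and Stat4 had no such peak, and their strongest peak was taken, which the authors class as intronic and which lay 0.196 kb and 0.531 kb from a RefSeq start (for Stat4 the downstream start of 2, with the peak 21.6 kb from the upstream one). Socs3 stood out. Its protein binds JAKs and the receptor chain gp130, and its start peak on chromosome 11 at 117968755 to 117970173 spans the printed promoter. In the order of replicates 1 to 4, WT libraries held 62.6, 64.2, 57.9 and 62.4 CPM and Idh2 R172K libraries 111.4, 110.0, 115.7 and 110.1 CPM. The groups lay far apart, and the mean rose from 61.8 ± 2.73 to 111.8 ± 2.67 CPM (mean ± SD, n = 4 per genotype), a log2 fold change of 0.85 ± 0.06 (SE, adjusted p = 3.13e-15).

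The Cish start peak, on chromosome 9 at 107296107 to 107297172, was next. CISH is an inhibitor that STAT5 induces. Its WT libraries held 22.8, 24.9, 23.1 and 24.9 CPM and its Idh2 R172K libraries 33.9, 31.5, 36.9 and 36.5 CPM, again without overlap. The log2 fold change was 0.54 ± 0.07 (adjusted p = 1.02e-08). At the Socs2 start, whose protein restrains growth hormone signalling, Idh2 R172K libraries held 36.4, 30.4, 33.1 and 36.9 CPM and WT libraries 29.5, 29.4, 24.8 and 27.6 CPM, so that the lowest mutant library lay just above the highest WT library (log2 fold change 0.30 ± 0.07, adjusted p = 0.000264).

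**Figure D1:**
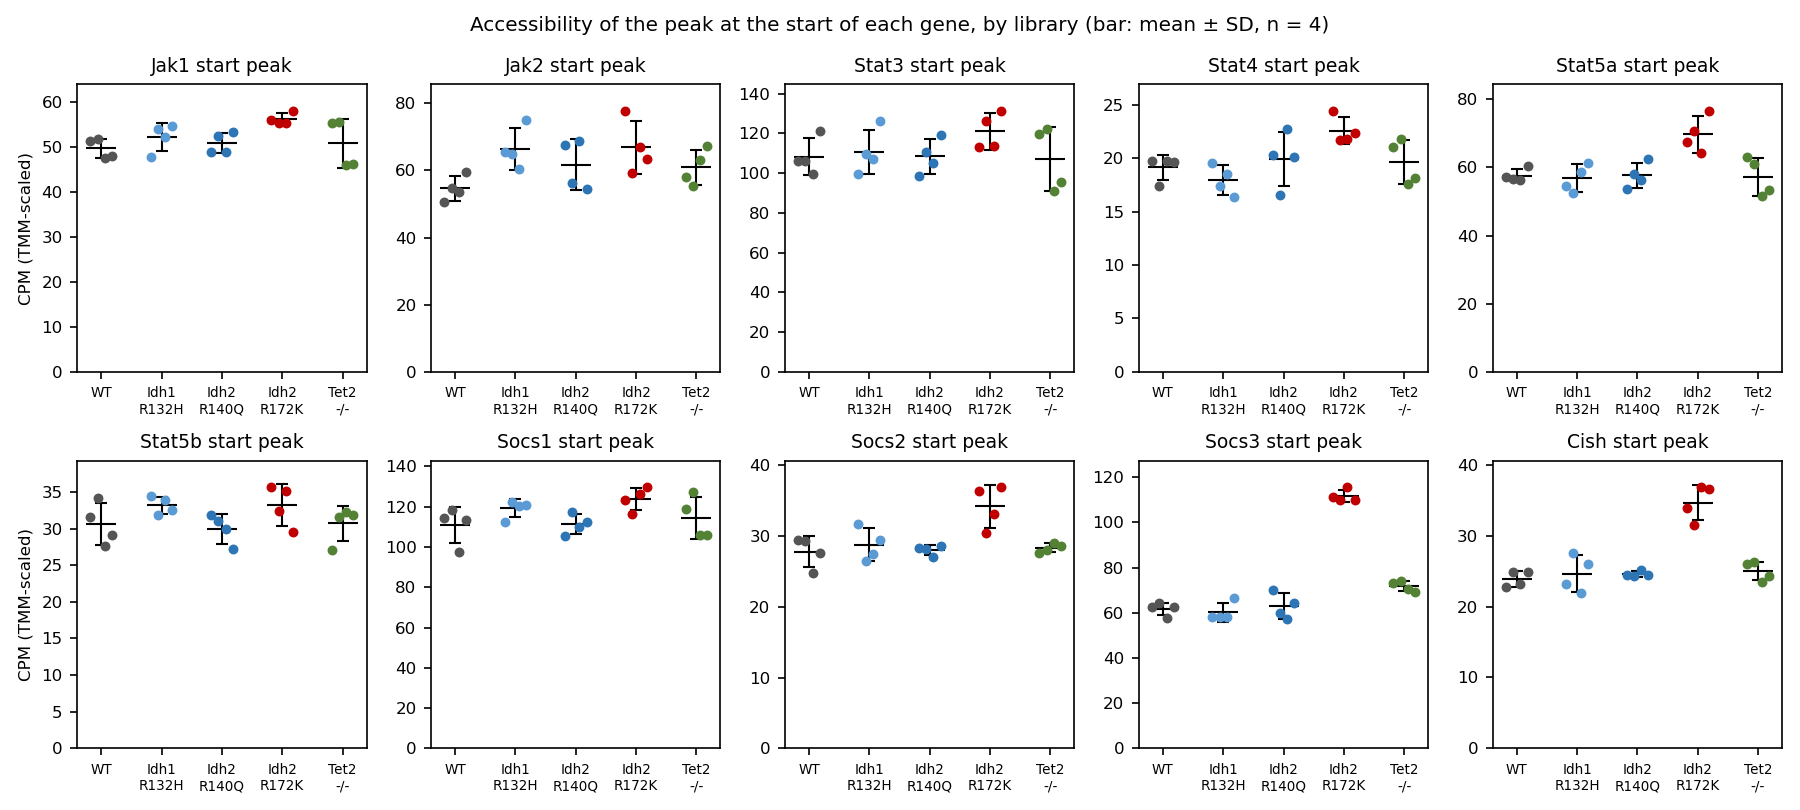
CPM (TMM-scaled, linear axis from 0) of the peak at the start of each of the 10 genes, 1 point per library in the order of replicates 1 to 4, with bars for the mean ± SD of 4 libraries per genotype. The Idh2 R172K libraries of Socs3 (110.0 to 115.7 CPM) and Cish (31.5 to 36.9 CPM) lie above every other library. Those of Stat5a do so by a smaller margin, and at the remaining start peaks they overlap libraries of another genotype.

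All 10 start peaks had a positive log2 fold change in Idh2 R172K, from 0.12 to 0.85, and 8 of them were called. Beside the 3 above these were Jak2 (0.30, adjusted p = 0.00388), Stat5a (0.27, adjusted p = 0.000819), Stat4 (0.25, adjusted p = 0.00999), Jak1 (0.18, adjusted p = 0.0198) and Socs1 (0.16, adjusted p = 0.0331). Stat3 (0.16, 95% interval -0.02 to 0.33, adjusted p = 0.139) and Stat5b (0.12, -0.02 to 0.26, adjusted p = 0.156) did not pass. Over all 15572 tested promoter-class peaks the median log2 fold change in Idh2 R172K was 0.14, with 39.8% called higher and 15.0% lower. The 5 smaller rises depended on scaling. Cyclic loess scaling, an adjustment for trends along the range of peak strength, called 3 of the 10 start peaks, Socs3 (0.67), Cish (0.44) and Socs2 (0.19), and turned Socs1 and Stat3 to -0.07 each. Calls were also lost at Jak1 without WT replicates 3 or 4 or Idh2 R172K replicate 4, at Stat4 without WT replicate 2 or Idh2 R172K replicate 1, and at Socs1 without WT replicate 3 or Idh2 R172K replicates 3 or 4.

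Jak2 showed how libraries of 1 genotype can spread at a start peak. Its WT libraries held 50.7, 54.9, 53.5 and 59.5 CPM and its Idh2 R172K libraries 77.8, 59.3, 67.1 and 63.5 CPM, so the groups overlapped slightly. Idh1 R132H libraries held 65.4, 64.9, 60.4 and 75.1 CPM, all above WT, with a log2 fold change of 0.28 and an adjusted p of 0.612. Idh2 R140Q lay at 0.18 (adjusted p = 0.903) and Tet2-/- at 0.16 (adjusted p = 0.366). Between genotypes, Idh2 R172K and Tet2-/- differed by 0.14 at this peak, with a 95% interval of -0.02 to 0.31.

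Idh2 R172K was set directly against Tet2-/- and Idh2 R140Q, but not against Idh1 R132H. It had a positive difference from both at all 10 start peaks. Of these 5 were called against Tet2-/- (Socs3, Cish, Stat5a, Socs2 and Stat4) and 5 against Idh2 R140Q (Socs3, Cish, Stat5a, Socs2 and Socs1). At Socs3 these differences were 0.64 (adjusted p = 1.38e-11) and 0.83 (adjusted p = 1.14e-14) on the log2 scale. Calls over all promoter-class peaks were not counted in these comparisons. The promoter class as a whole held 43.3% to 44.4% of counts in Idh2 R172K. It held 41.1% to 42.4% in Tet2-/- and 40.9% to 42.6% in Idh2 R140Q. Over all 129 peaks 59 differed from Tet2-/-, 35 higher and 24 lower, beside 44.3% of all peaks (20.1% higher and 24.1% lower). Against Idh2 R140Q 65 differed, 33 higher and 32 lower, beside 47% of all peaks (21.5% higher and 25.5% lower).

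Divided by peak width, the start peaks of the WT libraries fell into an order. Stat3 held 109 ± 9.19 CPM per kb of peak (SD, n = 4), Stat5a 75.3 ± 2.55 and Socs1 59.4 ± 4.87, and the ranges of these 3 did not overlap. Socs3, Jak1 and Jak2 followed at 43.5 ± 1.92, 43.1 ± 1.87 and 41.3 ± 2.77 CPM per kb, with overlapping ranges. Cish, Stat4, Stat5b and Socs2 closed the order at 22.4 ± 1.06, 21.6 ± 1.32, 18.2 ± 1.71 and 16.6 ± 1.30, where each range overlapped that of the next gene. In Idh2 R172K the level of Socs3 was 78.8 CPM per kb, between Stat5a at 91.2 and Socs1 at 66.4.

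**Figure D2:**
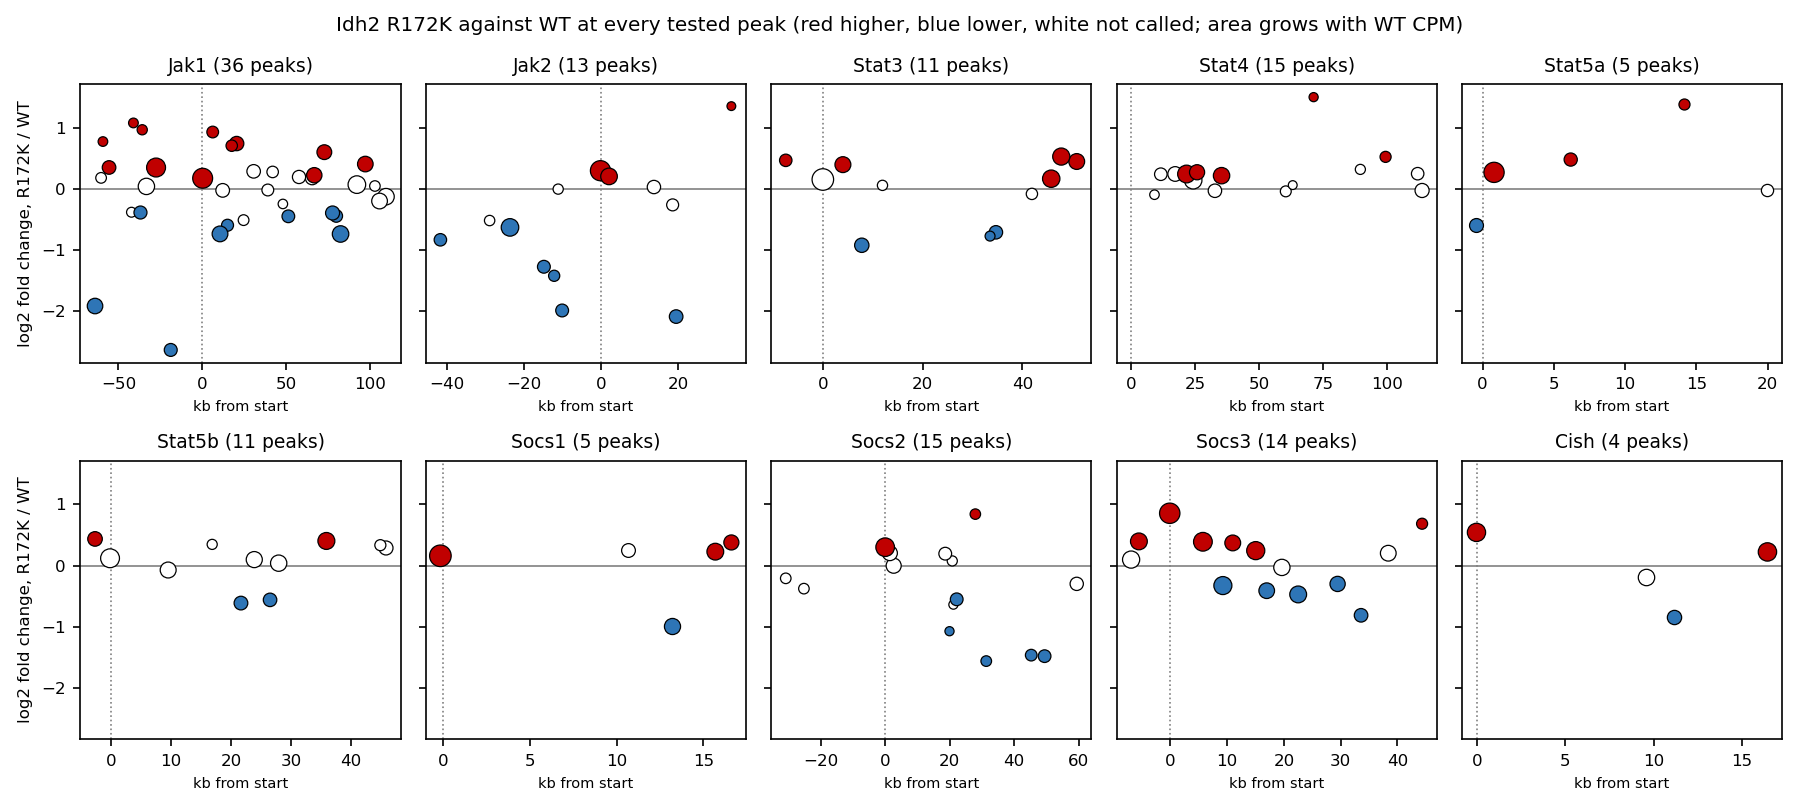
Log2 fold change of Idh2 R172K against WT at each of the 129 tested peaks against its distance in kb from the gene's most upstream RefSeq start, negative values upstream. For Socs2, without a promoter entry, the gene boundary stood in for the start. Stat5b extends beyond the start used, and all its peaks lie inside the gene. Red circles are peaks called higher, blue circles called lower, white circles not called, and a circle grows with the WT level. The deepest losses, to -2.63 at Jak1, lie away from the starts, and 5 of the 7 tested peaks more than 2 kb upstream of the Jak2 start are blue.

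Jak1 encodes a kinase shared by many interleukin and interferon receptors. The gene on chromosome 4 (101151974 to 101265282) had 36 peaks, of which 12 rose and 9 fell in Idh2 R172K. The deepest fold loss among all members lay 18.8 kb upstream of its start, at 101283756 to 101284355, in a peak the authors class as a promoter. WT libraries held 2.43, 3.27, 2.56 and 2.54 CPM there and Idh2 R172K libraries 0.346, 0.390, 0.370 and 0.676 CPM. The log2 fold change was -2.63 ± 0.23 (adjusted p = 1.51e-12), and every mutant library lay below every WT library. The Idh2 R172K levels, all under 1 CPM, rest on few reads.

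A second Jak1 peak, 64.0 kb upstream at 101328811 to 101329546, had the lowest p of all members. It held 7.25, 8.10, 6.70 and 8.16 CPM in the WT libraries and 1.73, 2.14, 1.81 and 2.59 CPM in Idh2 R172K, a log2 fold change of -1.91 ± 0.14 (adjusted p = 2.83e-15). Other peaks of the gene went up. The intronic peak 20.5 kb downstream of the start rose from 4.75 ± 0.570 to 8.13 ± 1.38 CPM (mean ± SD, n = 4 per genotype, log2 fold change 0.74, adjusted p = 5.34e-06), and a strong peak 27.6 kb upstream, at 31.8 CPM in WT, rose by 0.35 (adjusted p = 1.27e-05). Upstream of the start 5 peaks rose and 3 fell of 11, and more than 2 kb downstream 6 rose and 6 fell of 24.

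Jak2 encodes a kinase that signals for the erythropoietin receptor. Of its 14 peaks on chromosome 19, 13 were tested, and 3 rose and 6 fell in Idh2 R172K. More than 2 kb upstream of its start 5 of 7 tested peaks fell and none rose, beside 30.1% lower and 22.1% higher of all intergenic peaks. The falls lay 10.0 to 41.6 kb before the start, with log2 fold changes of -0.63 to -1.98. The nearest of them, at 29241549 to 29241987, went from 2.60 CPM in WT to 0.653 CPM in Idh2 R172K (-1.98 ± 0.28, adjusted p = 5.19e-07). Inside the gene the intronic peak at 29271092 to 29271552, 19.5 kb after the start, held 3.95, 3.36, 2.43 and 4.35 CPM in WT and 0.846, 0.974, 0.665 and 1.01 CPM in Idh2 R172K (-2.08 ± 0.22, adjusted p = 2.11e-10). A weak intronic peak at 29285511 to 29285764 rose from 0.326 to 0.801 CPM (1.35 ± 0.34, adjusted p = 0.00107).

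Stat3, the STAT of interleukin-6 and gp130 signalling, lies next to Stat5a and Stat5b on chromosome 11. In Idh2 R172K 5 of its 11 peaks rose and 3 fell. The peak with the lowest p among the rises, in an intron at 100891283 to 100892152, held 14.2, 14.1, 15.0 and 15.4 CPM in WT and 21.5, 17.4, 21.8 and 23.0 CPM in Idh2 R172K (0.53 ± 0.08, adjusted p = 8.03e-07). An intronic peak at 100931539 to 100932036, nearer to the start, fell from 5.42, 4.91, 4.60 and 4.27 CPM to 2.58, 3.02, 2.55 and 2.20 CPM (-0.92 ± 0.13, adjusted p = 1.65e-07). The libraries of both peaks did not overlap between WT and Idh2 R172K, while in Tet2-/- the same peaks differed from WT by -0.02 (adjusted p = 0.93) and -0.01 (adjusted p = 0.991).

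Stat4, the STAT of interleukin-12 signalling, had 15 peaks on chromosome 1, all inside the gene, and 5 rose and none fell in Idh2 R172K. The largest rise, at 52058124 to 52058605, was in a weak peak that held 0.228, 0.450, 0.657 and 0.369 CPM in WT and 1.04, 1.56, 1.11 and 1.07 CPM in Idh2 R172K (1.502 ± 0.29, adjusted p = 3.31e-05). In Tet2-/- it held 0.840, 0.633, 0.618 and 0.789 CPM, between these groups with some overlap with WT (0.83 ± 0.30, adjusted p = 0.133). The peak at the downstream start held 19.7, 17.4, 19.8 and 19.7 CPM in WT and 24.5, 21.7, 21.8 and 22.4 CPM in Idh2 R172K.

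Stat5a and Stat5b encode 2 closely related STATs that mediate thrombopoietin, erythropoietin and interleukin-3 signals, and the genes are neighbours. At Stat5a 3 of 5 peaks rose and 1 fell, and at Stat5b 2 of 11 rose and 2 fell. The Stat5a start peak held 57.2, 56.5, 56.2 and 60.4 CPM in WT and 67.4, 70.7, 64.2 and 76.7 CPM in Idh2 R172K, without overlap. An intronic Stat5a peak at 100873630 to 100874019 rose more, from 1.22 ± 0.275 to 3.07 ± 0.634 CPM (mean ± SD, n = 4 per genotype, log2 fold change 1.38, adjusted p = 1.53e-07). The small promoter-class peak between the genes, at 100859079 to 100859384, fell from 4.03 to 2.52 CPM (-0.59, adjusted p = 0.00167).

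At Stat5b the intronic peak at 100814301 to 100815020 rose from 13.5 ± 1.16 to 17.7 ± 1.81 CPM (0.40, adjusted p = 0.000105). The one at 100828698 to 100829145 fell from 3.69 ± 0.457 to 2.49 ± 0.456 CPM (mean ± SD, n = 4 per genotype, log2 fold change -0.61, adjusted p = 0.000824). In Tet2-/- the lowest adjusted p over the peaks of the 4 STAT genes was 0.103, at Stat4.

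Socs1, whose protein blocks JAK kinase activity directly, had 5 peaks on chromosome 16, all centred outside the short gene. Its start peak was large, at 114.3, 118.4, 97.7 and 113.4 CPM in WT and 123.1, 116.6, 126.3 and 129.7 CPM in Idh2 R172K, with overlap. The clearest change was 13.2 kb downstream, at 10772100 to 10772582, where WT libraries held 9.41, 8.35, 11.5 and 9.72 CPM and Idh2 R172K libraries 5.69, 3.90, 4.99 and 4.39 CPM (-0.98 ± 0.12, adjusted p = 6.74e-09). Tet2-/- was at 9.75 CPM there (0.02, adjusted p = 0.969). The neighbouring peak at 10768583 to 10769272 rose from 6.32 to 8.11 CPM (0.38, adjusted p = 0.00501).

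Socs2 had 15 peaks on chromosome 10, of which 2 rose and 5 fell in Idh2 R172K. The 5 losses all lay downstream, 20.0 to 49.4 kb from the start. The farthest, at 95367560 to 95368188, held 2.62, 2.99, 1.84 and 2.34 CPM in WT and 0.692, 0.877, 0.998 and 1.01 CPM in Idh2 R172K (-1.48 ± 0.23, adjusted p = 6.49e-07). The start peak rose, as given above.

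Socs3 had 14 peaks, 13 of them centred outside the gene, and 11 were called in Idh2 R172K, 6 higher and 5 lower. Peaks that rose and peaks that fell lay side by side along the flank downstream of the gene. The peak 5.74 kb from the start rose from 29.0 to 38.0 CPM (0.39, adjusted p = 2.68e-06), and that at 9.26 kb fell from 21.4 to 17.03 CPM (-0.33, adjusted p = 0.00075). At 15.0 kb a peak rose from 22.2 to 26.2 CPM (0.24, adjusted p = 0.00335), while at 22.5 kb another fell from 12.9 to 9.64 CPM (-0.47, adjusted p = 0.000233). These 4 peaks, like the Jak1 peak 27.6 kb upstream, were chosen after their values were seen. Cish had 4 peaks, and beside its start peak 1 rose and 1 fell. The fall, 11.1 kb downstream at 107307440 to 107308143, was from 3.87, 4.87, 4.67 and 5.29 CPM in WT to 2.58, 2.82, 2.70 and 2.37 CPM in Idh2 R172K (-0.84 ± 0.14, adjusted p = 3.5e-06).

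Tet2-/- lowered 6 peaks, 2 each at Jak1, Jak2 and Socs3, and raised 1, the Socs3 start peak. All 7 were also called in Idh2 R172K, in the same direction, with the WT libraries shared, and no peak was called in opposite directions. The same overlap was not counted over all 3844 peaks called in Tet2-/-, so it cannot be read as a trait of these genes. The Jak2 intronic peak described above had the lowest p. Its Tet2-/- libraries held 1.91, 1.07, 1.70 and 2.18 CPM, all below the lowest WT library (2.43 CPM), with a log2 fold change of -1.05 ± 0.18 (adjusted p = 0.000386), and Idh2 R172K was lower still (-1.04 against Tet2-/-, adjusted p = 0.000631). Idh1 R132H libraries held 2.09, 1.65, 2.25 and 1.77 CPM, also all below WT, but the adjusted p was 0.0645 (-0.87 ± 0.18), and the peak passed in 5 of 18 other settings. These were the replicate block (adjusted p = 0.0111), a term for the Xist signal (0.0417), the 2 genotypes alone (0.0101), the Xist-high libraries alone (0.0110) and the fit without WT replicate 3 (0.0188). Idh2 R140Q held 2.72, 2.32, 3.59 and 1.97 CPM and overlapped WT (-0.43, adjusted p = 0.845).

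**Figure D3:**
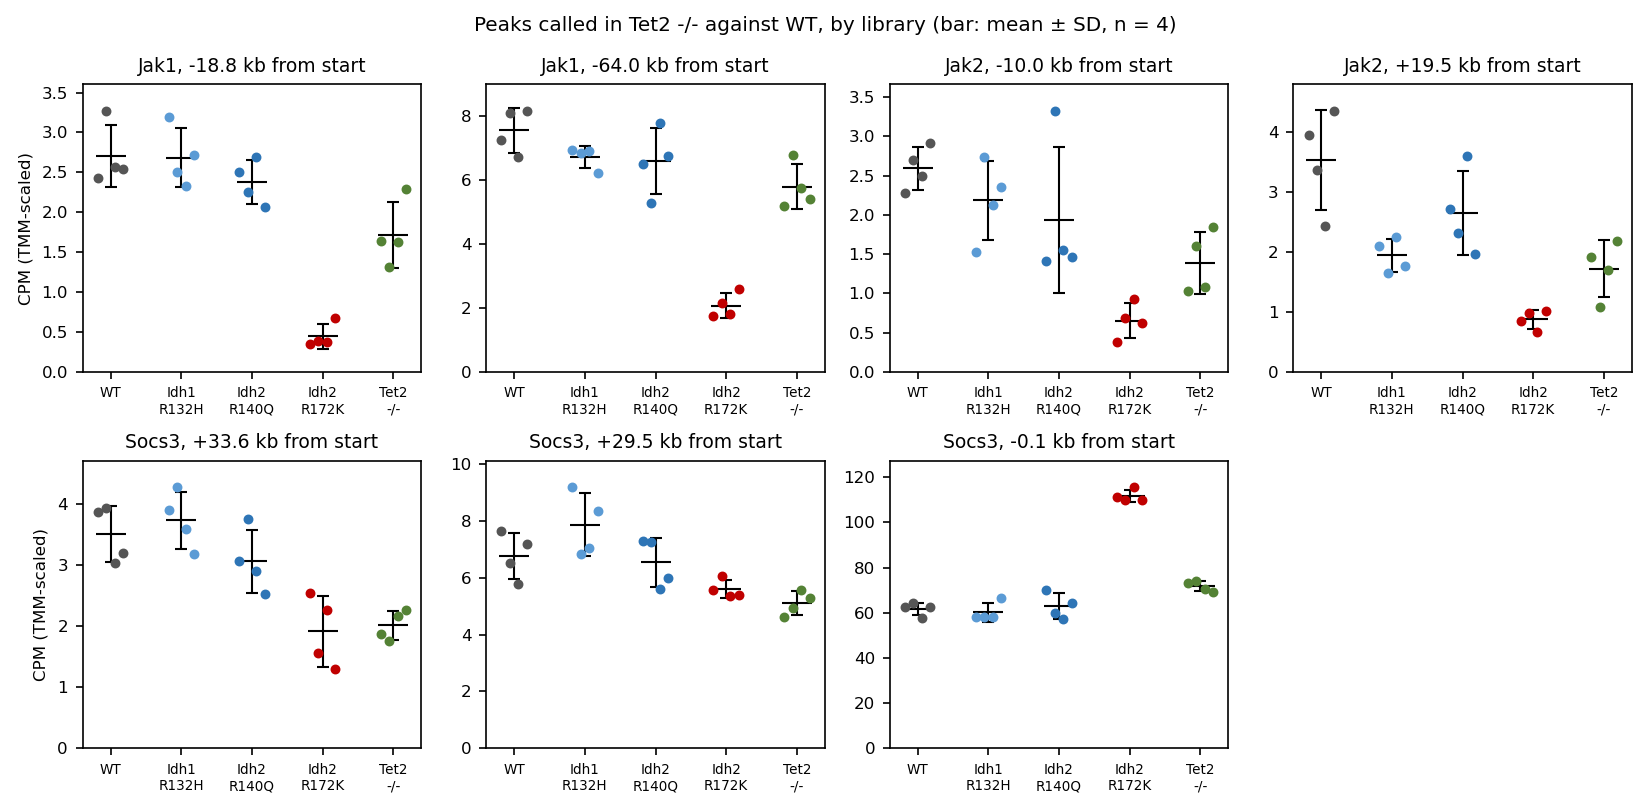
CPM (TMM-scaled, linear axis from 0) of the 7 peaks called in Tet2-/- against WT, titled by gene and distance from the most upstream RefSeq start, 1 point per library with the mean ± SD of 4 libraries per genotype. Idh2 R172K lies beyond Tet2-/- at the Jak1 and Jak2 peaks and at the Socs3 start, and at the Socs3 peak 33.6 kb downstream the 2 genotypes hold 1.91 and 2.01 CPM.

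At the Socs3 peak 33.6 kb downstream (117935557 to 117935998) the loss in both genotypes was of like size. WT libraries held 3.87, 3.93, 3.02 and 3.20 CPM, Tet2-/- libraries 1.87, 1.75, 2.16 and 2.25 CPM and Idh2 R172K libraries 2.54, 1.56, 2.25 and 1.30 CPM. The log2 fold changes were -0.80 ± 0.16 (adjusted p = 0.00173) and -0.81 ± 0.17 (adjusted p = 7.71e-05), and Idh2 R172K minus Tet2-/- was -0.01 ± 0.18 (adjusted p = 0.976). A neighbouring peak at 117939557 to 117940259 fell by 0.42 in Tet2-/- (adjusted p = 0.0292) and by 0.30 in Idh2 R172K (adjusted p = 0.0269). The latter call was lost without WT replicates 1 or 4 or Idh2 R172K replicates 1, 3 or 4, and with DESeq2.

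The Socs3 start peak held 73.2, 74.2, 70.5 and 69.3 CPM in Tet2-/-, all above the 4 WT libraries and all below the 4 of Idh2 R172K (0.21 ± 0.06, adjusted p = 0.0421). At the Jak1 peak 18.8 kb upstream Tet2-/- held 1.63, 1.32, 1.62 and 2.29 CPM (-0.64 ± 0.17, adjusted p = 0.0255). The Jak1 peak 64.0 kb upstream (-0.40, adjusted p = 0.0382) and the Jak2 peak 10.0 kb upstream (-0.90, adjusted p = 0.0262) were the other two. The naming rule covered 5 of these 7 peaks, and the other two, the Jak2 peak 10.0 kb upstream and the Socs3 peak at 117939557, were added after their values were seen. The Jak2 intronic peak and the Socs3 peak 33.6 kb downstream stayed called with any 1 library left out, and the Socs3 start call was lost without any 1 of the 8. Of the 7 calls, 2 were left without WT replicate 2 or Tet2-/- replicate 1, 3 without WT replicate 4 or Tet2-/- replicate 3, and 4 without WT replicate 1 or Tet2-/- replicates 2 or 4.

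**Figure D4:**
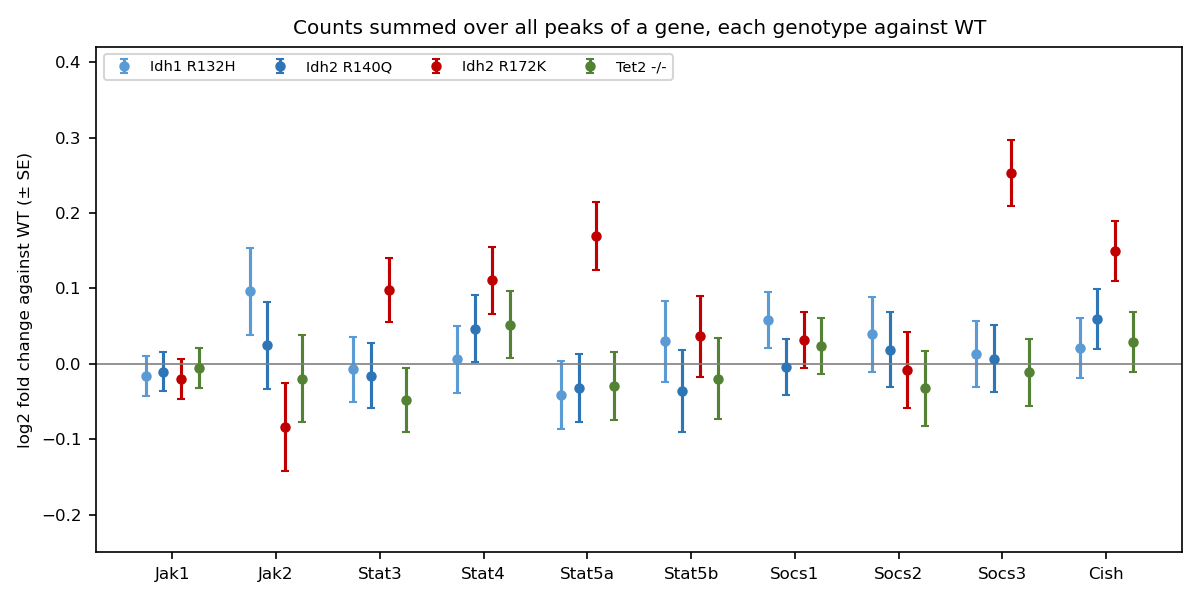
Log2 fold change against WT, with its SE, of counts summed over all peaks of a gene, for the 10 genes and 4 mutant genotypes (4 libraries per genotype). The sums were scaled by TMM factors of their own, computed over genes. Idh2 R172K is highest at Socs3 (0.25), Stat5a (0.17), Cish (0.15) and Stat4 (0.11), and the other genotypes lie between -0.05 and 0.10.

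Summed over all its peaks, a gene gives 1 value per library. In Idh2 R172K 4 of the 10 genes were called, all higher, beside 48.5% of the 17775 genes tested in the same way (23.3% higher). Socs3 rose from 226 ± 13.0 to 269 ± 8.44 CPM (mean ± SD, n = 4 per genotype, log2 fold change 0.25 ± 0.04, adjusted p = 3.33e-05), and every Idh2 R172K library (276.4, 266.0, 276.0 and 259.0 CPM) lay above the highest WT library (242.1 CPM). Stat5a (0.17, adjusted p = 0.00306), Cish (0.15, adjusted p = 0.00297) and Stat4 (0.11, adjusted p = 0.0428) were the others, and the Stat4 call was lost with cyclic loess scaling and without WT replicates 1, 2 or 4 or Idh2 R172K replicates 1 or 3. Jak1, with 12 rises and 9 falls among its peaks, had a summed level of 232 CPM in WT and 229 CPM in Idh2 R172K (-0.02, adjusted p = 0.561, and 0.016 with cyclic loess scaling). In Tet2-/-, Idh1 R132H and Idh2 R140Q 0 of the 10 genes were called by edgeR, 0 had an unadjusted p under 0.05, and DESeq2 called 0, beside 1.51%, 0.0281% and 0.00563% of all genes by edgeR.

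The peaks whose pattern was most like that of the Jak1 peak 18.8 kb upstream lay near Sipa1l2 on chromosome 8, Plcxd2 on chromosome 16 and Gm815 on chromosome 19, with Pearson r of 0.983, 0.981 and 0.981 of log2 CPM over the 20 libraries. The pattern was common, since 3507 peaks had an r above 0.9, and the libraries share the split between Idh2 R172K and the rest.

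Other genes of the pathway moved both ways in Idh2 R172K too. Of 21 tested peaks of the other JAK and STAT genes 5 rose and 6 fell, such as a Tyk2 exon peak (-2.39, adjusted p = 1.57e-07) and the Jak3 promoter peak (0.28). The other SOCS genes had 14 rises and 15 falls among 39 peaks, among them Socs7 (-1.39) and Socs6 (0.88), whose peak 30.3 kb from the gene went from 19.6 to 36.0 CPM. Negative regulators outside the SOCS family, such as the phosphatases Ptpn1 (1.01) and Ptpn6 (-0.90) and the ubiquitin ligase Cbl (-1.32), had 47 rises and 46 falls among 179 peaks.

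Cytokine receptor genes had 40 rises and 56 falls among 178 peaks. Csf3r, the G-CSF receptor, rose by 1.00 at its promoter, and a peak 25.9 kb from Il6st, which encodes gp130, fell by 2.48 on the log2 scale. STAT target genes had 50 rises and 67 falls among 214 peaks, including Osm (-1.40), Ccnd3 (-2.17) and a peak 111 kb from Ccnd1 (-2.96). These shares are to be read against the 25.1% and 27.9% of all peaks. In Tet2-/-, where 0.785% of all peaks rose and 2.32% fell, 2 peaks of the other SOCS genes rose and 2 fell, 1 peak of the other negative regulators rose and 2 fell, and 1 peak of the receptor genes rose and 4 fell, among them a peak 26.6 kb from Ifnar1, a chain of the type I interferon receptor (-1.92, adjusted p = 2.94e-08). Of the STAT target peaks 0 rose and 3 fell. Of the 21 peaks of the other JAK and STAT genes 0 were called by edgeR in Tet2-/-, and DESeq2 called 0. In the edgeR test 3 of these 21 had an unadjusted p under 0.05, beside 15.9% of all peaks. These lists were chosen with earlier results of these data known, like the members.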

How the data were processed

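ATAC-seq libraries of LSK cells from 5 genotypes, 4 pools each, were used. The authors deposited 1 table of whole-number counts per peak over a common peak set, and an annotation with coordinates, a class and a distance to the nearest start. The submitters' processing notes name featureCounts, MACS2, SAMtools, Picard, BWA and Trim Galore, with build mm10. Not given in the sources used here are their versions and settings, nor whether reads were shifted to where the transposase cut. Count columns that join Idh1 with R140Q were taken as Idh2 R140Q, the only genotype with that change. Peaks were named from 21896 protein-coding RefSeq genes (GRCm38.p6).

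Counts were tested in edgeR 4.0.16 (R 4.3.3) with TMM scaling, the expression filter by genotype (123908 peaks kept, 1435 removed) and a robust quasi-likelihood fit with 1 mean per genotype over the 20 libraries. The SE of a log2 fold change is its size divided by the root of the F statistic, and 95% intervals are normal. P-values are 2-sided and measure the spread between pools of mice. CPM uses TMM-scaled library sizes, with factors computed over peaks for single peaks and over genes for gene sums. The common biological coefficient of variation was 7.73%. Libraries held from 10502052 (Idh2 R172K replicate 2) to 27890340 counts. The weakest peaks described hold under 1 CPM, so their values rest on few reads, the fewest in the shallowest libraries. The fit was also run on simulated data in which 200 peaks changed. Far more were called in Idh2 R172K, so that run cannot check the scaling under so broad a change. Alternatives were RLE, library-size and cyclic loess scaling (limma 3.58.1), DESeq2 1.42.0, no filter, a replicate block, a term for or split by the Xist signal, 2 genotypes alone, and each library left out. Described peaks followed a rule: the start peak of each gene, and its called peak of lowest p in each direction in Idh2 R172K and in Tet2-/-. Members, lists and rules were chosen with earlier results of these data known. Deviations correlated above 0.1 in 21 of 40 same-numbered pairs and in 7 of 120 others (median r 0.10 and -0.04). Since not every same-numbered pair did and no label ties a number to a batch, the numbers were not taken as pairing the samples.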

Additional observations from a re-analysis of the deposited data

Results flagged for a closer look

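Over the 27 peaks that the naming rule chose and the 10 gene sums, 185 groups of 4 libraries were examined for a library that stood apart from the other 3 of its genotype by Dixon's test at 95%, and 10 were found. Chance alone gives about 1 in 20. At the Jak1 peak at 101283756, WT replicate 2 held 3.27 CPM (others 2.43 to 2.56) and Idh2 R172K replicate 4 held 0.676 CPM (others 0.346 to 0.390), both above the rest of their genotype. At the Jak1 peak at 101328811, Idh1 R132H replicate 4 was low at 6.21 CPM.

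At the Stat4 peak at 52008329, WT replicate 2 was low at 17.4 CPM (others 19.7 to 19.8), and at the one at 52058124 Idh2 R172K replicate 2 was high at 1.56 CPM. For Stat5b, Tet2-/- replicate 1 was low at the start peak at 100849937 (27.1 CPM, others 31.6 to 32.2) and replicate 3 was high at 100828698 (3.59 CPM). Idh1 R132H replicate 2 was low at the Socs1 peak at 10772100 (8.31 CPM), and Idh1 R132H replicate 4 was high at the Socs3 start peak at 117968755 (66.4 CPM, others 58.0 to 58.2). The summed Cish peaks were low in WT replicate 3 (63.1 CPM, others 66.3 to 66.8).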

How the results depend on the processing

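The 47 log2 fold changes of peaks and gene sums that were followed through the alternatives kept their direction, except that cyclic loess scaling gave 0.016 for the summed Jak1 peaks (adjusted p = 0.667), -0.068 at the Stat3 start (adjusted p = 0.255) and -0.066 at the Socs1 start (adjusted p = 0.189), and the Xist-high libraries alone gave -0.038 at the Stat5b start in Idh2 R172K. Scaling moved the split of calls: with library size alone 29 of the 129 peaks were higher and 35 lower in Idh2 R172K, and 4 of 10 start peaks were called. The causes were not tested.

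The unrestricted fit called 65673 peaks in Idh2 R172K, 3844 in Tet2-/-, 34 in Idh1 R132H and 19 in Idh2 R140Q against WT. The libraries of each genotype split by their signal at Xist into 2 low and 2 high, and using 1 set leaves 2 per genotype. In the Xist-high set 42760 peaks, 44 of the 129, were called in Idh2 R172K against WT and 24364 peaks, 28 of the 129, against Idh2 R140Q. For Tet2-/- the Xist-low set gave 2427 peaks and 4 of the 129, and the Xist-high set 9499 and 12. For Idh1 R132H the Xist-low set gave 70 peaks, and the Xist-high set called 1 of the 129. For Idh2 R140Q the Xist-low set gave 74 peaks and 1 of the 129, and the Xist-high set 8 peaks. A term for the Xist set gave 52 peaks and 1 of the 129 in Idh1 R132H, and fitting the 2 genotypes alone 88 and 1. Of peaks in the genes or within 10 kb, 94 were tested. Against WT, 51 of the 94 were called in Idh2 R172K, 33 higher and 18 lower, beside 53% of all peaks (25.1% higher and 27.9% lower). In Tet2-/- 2 of the 94 were called, beside 3.1% of all peaks. Between Idh2 R172K and Idh2 R140Q 43 of the 94 were called, beside 47% of all peaks.

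With the replicate number as a block, 6634 peaks were called in Tet2-/-, 96 in Idh1 R132H (1 of the 129) and 36 in Idh2 R140Q. Of the 20 libraries 15 correlated best with their own number, a hint from the data and not the design. For Idh2 R172K against WT the block called 68461 peaks, 77 of the 129 and 8 start peaks, and for Tet2-/- 7 of the 129.

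Leaving out 1 library gave 58401 to 63963 called peaks and 61 to 75 of the 129 in Idh2 R172K against WT, and 2116 to 4317 and 2 to 6 in Tet2-/-. It gave 18 to 29 and 0 to 1 in Idh1 R132H, and 12 to 94 and 0 in Idh2 R140Q. Against Tet2-/- Idh2 R172K had 47258 to 53056 and 49 to 61, and against Idh2 R140Q 50868 to 56556 and 53 to 63. Summed counts called 3 to 4 of the 10 genes in Idh2 R172K and 0 in the other genotypes. The 94 peaks of Idh2 R140Q came without its replicate 2 and 33 without its replicate 3, and the 12 without WT replicate 1. The count in Tet2-/- fell to 2370 and 2281 without WT replicates 1 and 2, and to 2485 and 2116 without its own replicates 1 and 3. In Idh1 R132H it was 19 without WT replicate 1, and 18, 20 and 22 without its own replicates 1, 3 and 4.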
